A study of Homo sapiens with 9 samples.

Results

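The ATF4-CHOP stress regulators examined here are 10 genes of the integrated stress response, chosen by name from the 26485 genes listed for MDA-MB-231 cells. The choice was made with earlier results of these data known. They are the transcription factors ATF4, ATF5, ATF3, DDIT3 (which encodes CHOP), CEBPB, CEBPG and NUPR1, the feedback genes TRIB3 and PPP1R15A, and the effector CHAC1. All 10 were present in both comparisons and all 10 had enough reads to be tested. MDA-MB-231 is an established line of human triple-negative breast cancer. Its cells stably expressed a non-specific (NS) shRNA, ASAH1 shRNA #1 or ASAH1 shRNA #2, with 3 RNA-seq libraries each and otherwise the same growth conditions. ASAH1 encodes acid ceramidase, the lysosomal enzyme that breaks down ceramide. Each hairpin is represented by its own stably expressing cells. The labels call the 3 libraries of a group biological replicates but do not say how they were derived, so the p-values measure the spread between these libraries.

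In the integrated stress response, kinases that sense amino acid shortage, unfolded protein in the endoplasmic reticulum, viral RNA or heme shortage phosphorylate the translation factor eIF2alpha. General translation then falls, while the ATF4 mRNA is translated more. ATF4 protein turns on the gene for CHOP along with genes for amino acid supply, and both factors bind DNA together with C/EBP proteins. TRIB3 and GADD34, the product of PPP1R15A, act back on the pathway. RNA-seq counts mRNA, so the translation of ATF4 was not measured here.

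Reads on genes ranged from 30989598 to 34867548 per library with NS shRNA (median 32929801), from 23806003 to 39791698 with shRNA #1 (33286543) and from 35653318 to 49659106 with shRNA #2 (39141363). ASAH1 fell with both hairpins, by 1.76 on the log2 scale with shRNA #1 (standard error 0.05, adjusted p = 9.49e-09 from limma) and by 2.63 with shRNA #2 (standard error 0.06, adjusted p = 5.42e-10 from limma). The log2 ratio of ASAH1 in the shRNA #2 libraries to ASAH1 in the shRNA #1 libraries was -0.89 (edgeR, adjusted p = 6.84e-08). RPM is the reads of a gene per 1000000 reads on genes, with library totals scaled by the trimmed mean of M-values (TMM). The line's markers VIM, CD44, EGFR and KRT18 were at 83.9 RPM or more in each of the 9 libraries. ESR1 and PGR had at most 2 reads in any library. ERBB2 was at 59.3 to 102 RPM. Of the markers of other cell types, the leukocyte gene PTPRC had at most 8 reads, the endothelial gene PECAM1 1.17 to 3.02 RPM and the fibroblast gene COL1A1 15.5 to 25.9 RPM.

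ATF4 binds with C/EBP partners to a composite DNA element called the C/EBP-ATF response element (CARE). The 1000 bases upstream of 35116 RefSeq gene starts on hg38 were searched on both strands for 3 spellings, TGATGNAA (CARE), TGACGTCA (the cAMP response element, CRE) and TGACGNAA (CRE-like), where N is any base. No 8 bases can match more than 1 of these spellings. CARE stood in 12.95% of the windows, CRE in 2.38% and CRE-like in 3.55%. At least 1 of the 3 spellings stood upstream of 20.8% of the 27305 genes with a window. Among the 10 regulators, 9 had a start in the table and 6 of these 9 had a match. No match was found in the windows of ATF4, ATF5 and CEBPB, which says only that these letters are not there, and NUPR1 had no start in the table. A match is a description of the sequence and not a binding site.

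The 6 regulators with a match also had the 6 largest log2 fold changes with shRNA #1. With shRNA #2 they did not, since NUPR1, which had no window, came just above DDIT3. A link between matches and fold changes was not tested. Matched stretches are shown for all 6, for ATF3 at both starts and for the other genes only at the start with the nearest match. Each is 30 bases, read 5′ to 3′ on the strand of its gene, with the match in capitals. A CARE match reads TTGCATCA where TGATGCAA lies on the opposite strand.
ATF3, start 1: aaaggtcaggaTGATGGAAggctgtcatat
ATF3, start 2: tagtttcagctTGACGTCAagcctctttga
DDIT3: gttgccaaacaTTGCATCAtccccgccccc
CEBPG: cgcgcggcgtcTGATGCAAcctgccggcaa
TRIB3, in 3 copies: ttagctccggtTTGCATCAcccggaccggg
PPP1R15A: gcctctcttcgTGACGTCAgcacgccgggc
CHAC1, CRE-like: tgcccgccgccTGACGCAAtccgaggcgcc
CHAC1, CARE: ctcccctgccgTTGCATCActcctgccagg

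The first ATF3 stretch (hg38 chr1:212565205-212565234, plus strand, CARE match 191 bases upstream of the start) lies outside any transcript in GENCODE v44. The second (chr1:212614510-212614539, plus strand, CRE match 497 bases upstream of a later start) lies in an intron of the longer ATF3 transcript. The DDIT3 stretch (chr12:57520802-57520831, minus strand, match 303 bases upstream) lies within transcripts of DDIT3 and of the opposite-strand gene MBD6 but in no exon. The CEBPG stretch (chr19:33374060-33374089, plus strand, match 42 bases upstream) lies in an intron of a longer CEBPG transcript.

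The same 30 bases occur upstream of TRIB3 at chr20:380881-380910, chr20:380914-380943 and chr20:380947-380976, all on the plus strand, with CARE matches 403, 370 and 337 bases before the start. TRIB3 thus had the most matches upstream of a start among the starts shown. The PPP1R15A stretch (chr19:48872352-48872381, plus strand) holds a CRE match 58 bases upstream. The CHAC1 stretches (chr15:40953194-40953223 and chr15:40953251-40953280, plus strand) hold a CRE-like match 266 bases and a CARE match 209 bases upstream. The stretches of TRIB3, PPP1R15A and CHAC1 overlap exons of longer transcripts of the same genes.

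**Figure D1:**
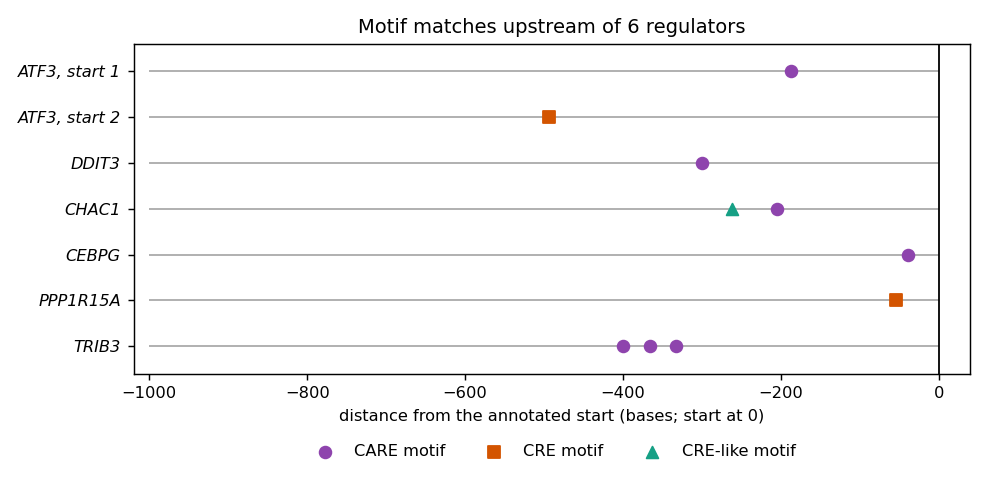
Positions of the motif matches upstream of 6 regulators, at both starts of ATF3 and at the start with the nearest match for the other genes. The horizontal axis is the distance in bases from the annotated start, each grey line is the 1000 bases searched for 1 start, and the symbols mark CARE, CRE and CRE-like matches. The 3 TRIB3 matches stand in a row between 403 and 337 bases upstream, and the CEBPG match, 42 bases upstream, is the nearest to a start.

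The first comparison asked how the mRNA of each regulator differed between each ASAH1 knockdown and NS shRNA. The values are normalised counts, that is reads divided by 1 size factor per library. The factors were set separately for each hairpin with the NS shRNA libraries, so the same NS shRNA libraries have slightly different normalised counts in the comparisons with shRNA #1 and with shRNA #2. A gene is called higher or lower at an adjusted p below 0.05 from limma on log2(normalised count + 1), and the log2 fold changes below are on that scale.

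With shRNA #1, 9 of the 10 regulators were higher, 0 were lower and ATF5 was not called. With shRNA #2, all 10 were higher. Because the regulators were chosen with earlier results of these data known, these counts and the medians below describe them and are not a test of the set. Many other genes changed too: 32.8% of the 14341 genes tested were higher and 33.3% lower with shRNA #1, and 33.5% of 14250 were higher and 33.4% lower with shRNA #2. The median log2 fold change of the 10 regulators was 2.00 with shRNA #1 and 1.19 with shRNA #2, beside medians of 0.0013 and 0.013 over all genes tested. All 10 regulators had each knockdown library above each NS shRNA library in both comparisons, as had 34.5% of all genes tested with shRNA #1 and 35.1% with shRNA #2. For a single gene the exact two-sided permutation test of 3 libraries against 3 then gives p = 0.1, the smallest p it allows. Both comparisons use the same NS shRNA libraries and are not independent of each other.

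ATF4 (chr22:39519695-39522683, plus strand) encodes the central factor of the pathway, controlled largely through its translation. Its normalised counts were 4926, 5105 and 4685 with NS shRNA and 7176.5, 7372 and 7817 with shRNA #1. Beside shRNA #2, they were 5316, 5542 and 5051 with NS shRNA and 9351, 8774 and 9884 with the hairpin. The knockdown libraries stood apart from the NS shRNA libraries in both comparisons, by a margin that was small beside that of most other regulators. ATF4 was 1.52-fold higher with shRNA #1 (log2 fold change 0.60, standard error 0.05, adjusted p = 7.13e-06) and 1.76-fold higher with shRNA #2 (log2 fold change 0.82, standard error 0.06, adjusted p = 1.20e-06). The annotation holds 4 ATF4 pseudogenes, ATF4P1 to ATF4P4, and reads that align equally well to several places are left out of a gene count under the default htseq-count settings the authors name.

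ATF5 (chr19:49928702-49933935, plus strand) encodes a related factor whose mRNA is also translated under stress, and it overlaps NUP62 and IL4I1 on the opposite strand. It had normalised counts of 1089, 938 and 897 with NS shRNA and 1103, 1096 and 1104 with shRNA #1. The highest NS shRNA library came close to the shRNA #1 libraries, and the log2 fold change of 0.18 was not called (95% confidence interval 0.0092 to 0.35, adjusted p = 0.0606 from limma). For shRNA #2, the counts were 1176, 1018 and 968 with NS shRNA and 1799, 1615 and 1816 with the hairpin. ATF5 was 1.66-fold higher with shRNA #2 (log2 fold change 0.73, standard error 0.08, adjusted p = 2.67e-05). The call with shRNA #1 depends on the NS shRNA libraries: without NS shRNA replicate 1, the log2 fold change was 0.26 and the limma adjusted p 0.00598.

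ATF3 (chr1:212565334-212620777, plus strand) encodes a stress-induced factor that can repress or activate its targets. It had normalised counts of 272, 201.2 and 235 with NS shRNA and 2698, 2754 and 2692 with shRNA #1. Normalised with the shRNA #2 libraries, the NS shRNA libraries had 294, 218 and 254, against 1191, 1300 and 1249 with the hairpin. The 6 knockdown libraries lay far above the NS shRNA libraries, with the shRNA #1 libraries highest. The change was 11.5-fold with shRNA #1 (log2 fold change 3.53, standard error 0.10, adjusted p = 9.49e-09) and 4.90-fold with shRNA #2 (log2 fold change 2.29, standard error 0.11, adjusted p = 5.54e-08). With shRNA #1, ATF3 ranked 30 from the top of the 14341 log2 fold changes, the highest of the 10 regulators.

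DDIT3 (chr12:57516588-57521737, minus strand) encodes CHOP, a C/EBP-family factor linked to cell death under prolonged stress. DDIT3 had normalised counts of 463, 456 and 435 with NS shRNA and 2506, 2420 and 2602 with shRNA #1. On the shRNA #2 scale, DDIT3 had 499, 495 and 469 with NS shRNA and 1019, 1102 and 1163 with the hairpin. The libraries within each group lay close together and the groups were well apart. DDIT3 was 5.55-fold higher with shRNA #1 (log2 fold change 2.47, standard error 0.06, adjusted p = 5.25e-09) and 2.24-fold higher with shRNA #2 (log2 fold change 1.16, standard error 0.08, adjusted p = 4.98e-07). The genes MARS1 and MBD6 overlap DDIT3 on the opposite strand, and the reads were counted by strand. A further protein-coding gene model overlaps DDIT3 on its own strand in GENCODE, and its part in the DDIT3 count was not tested.

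CEBPB (chr20:50190830-50192668, plus strand) encodes C/EBPbeta, a partner of both ATF4 and CHOP. It had normalised counts of 5108, 4990 and 4338 with NS shRNA and 7947, 8171 and 9453 with shRNA #1. In the comparison with shRNA #2, it had 5512, 5417 and 4677 with NS shRNA and 6977, 5541 and 7038 with the hairpin. The second shRNA #2 library lay just above the highest NS shRNA library. CEBPB was 1.77-fold higher with shRNA #1 (log2 fold change 0.82, standard error 0.08, adjusted p = 1.59e-05) and 1.25-fold higher with shRNA #2 (log2 fold change 0.32, standard error 0.10, adjusted p = 0.0133). The call with shRNA #2 was lost without shRNA #2 replicate 1 (log2 fold change 0.27, adjusted p = 0.0657 from limma).

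CEBPG (chr19:33373685-33382686, plus strand) encodes C/EBPgamma, a C/EBP protein that pairs with ATF4. Its normalised counts were 1447, 1569 and 1458 with NS shRNA and 6269, 6470 and 6526 with shRNA #1. The shRNA #2 comparison gave 1562, 1703 and 1572 with NS shRNA and 5938, 5748 and 5927 with the hairpin. All 6 knockdown libraries were at several times the level of the NS shRNA libraries and varied little. CEBPG was 4.31-fold higher with shRNA #1 (log2 fold change 2.11, standard error 0.05, adjusted p = 5.25e-09) and 3.64-fold higher with shRNA #2 (log2 fold change 1.86, standard error 0.06, adjusted p = 5.51e-09). CEBPD, a further C/EBP gene, was lower with both hairpins, at log2 fold changes of -1.16 and -0.995 (adjusted p = 1.82e-06 and 3.28e-06 from limma).

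NUPR1 (chr16:28532708-28539008, minus strand) encodes a small stress-induced nuclear protein. It had normalised counts of 840, 783 and 679 with NS shRNA and 1879, 1929 and 2237 with shRNA #1. In the comparison with shRNA #2, it had 907, 850 and 732 with NS shRNA and 1836, 1664 and 2082 with the hairpin. The groups were apart in both comparisons. NUPR1 was 2.63-fold higher with shRNA #1 (log2 fold change 1.39, standard error 0.09, adjusted p = 1.46e-06) and 2.24-fold higher with shRNA #2 (log2 fold change 1.16, standard error 0.10, adjusted p = 3.13e-06).

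TRIB3 (chr20:362835-397559, plus strand) encodes a pseudokinase that is induced by ATF4 and CHOP and binds ATF4 to restrain it. The TRIB3 counts were 1353, 1385 and 1274 with NS shRNA and 4748, 4883 and 5289 with shRNA #1. The comparison with shRNA #2 gave 1460, 1503 and 1374 with NS shRNA and 3500.0, 2981 and 3649 with the hairpin. The second shRNA #2 library was the lowest of the 6 knockdown libraries and still far above NS shRNA. TRIB3 was 3.72-fold higher with shRNA #1 (log2 fold change 1.89, standard error 0.06, adjusted p = 1.43e-08) and 2.33-fold higher with shRNA #2 (log2 fold change 1.22, standard error 0.08, adjusted p = 5.00e-07).

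PPP1R15A (chr19:48872212-48876059, plus strand) encodes GADD34, which brings protein phosphatase 1 to eIF2alpha and so lets translation resume. It had normalised counts of 5413, 5412 and 5015 with NS shRNA and 34688, 36747 and 40576 with shRNA #1. In the comparison with shRNA #2, it had 5841, 5875 and 5407 with NS shRNA and 32977, 28919 and 35636 with the hairpin. PPP1R15A therefore had the highest counts of the 10 regulators in each of the 6 knockdown libraries. It was 7.06-fold higher with shRNA #1 (log2 fold change 2.82, standard error 0.06, adjusted p = 3.89e-09) and 5.68-fold higher with shRNA #2 (log2 fold change 2.51, standard error 0.08, adjusted p = 5.07e-09).

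CHAC1 (chr15:40952962-40956512, plus strand) encodes an enzyme that breaks down glutathione and is switched on downstream of ATF4. CHAC1 had normalised counts of 160, 134 and 137 with NS shRNA and 1461.5, 1374 and 1423 with shRNA #1. Against shRNA #2, the NS shRNA libraries had 173, 146 and 147, and the hairpin libraries 1061, 946 and 1057. CHAC1 was the regulator with the lowest counts in the NS shRNA libraries and was well above them in all 6 knockdown libraries. It was 9.84-fold higher with shRNA #1 (log2 fold change 3.30, standard error 0.09, adjusted p = 6.81e-09) and 6.55-fold higher with shRNA #2 (log2 fold change 2.71, standard error 0.10, adjusted p = 1.16e-08). With shRNA #2, it ranked 64 from the top of the 14250 log2 fold changes, ahead of the other regulators.

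**Figure D2:**
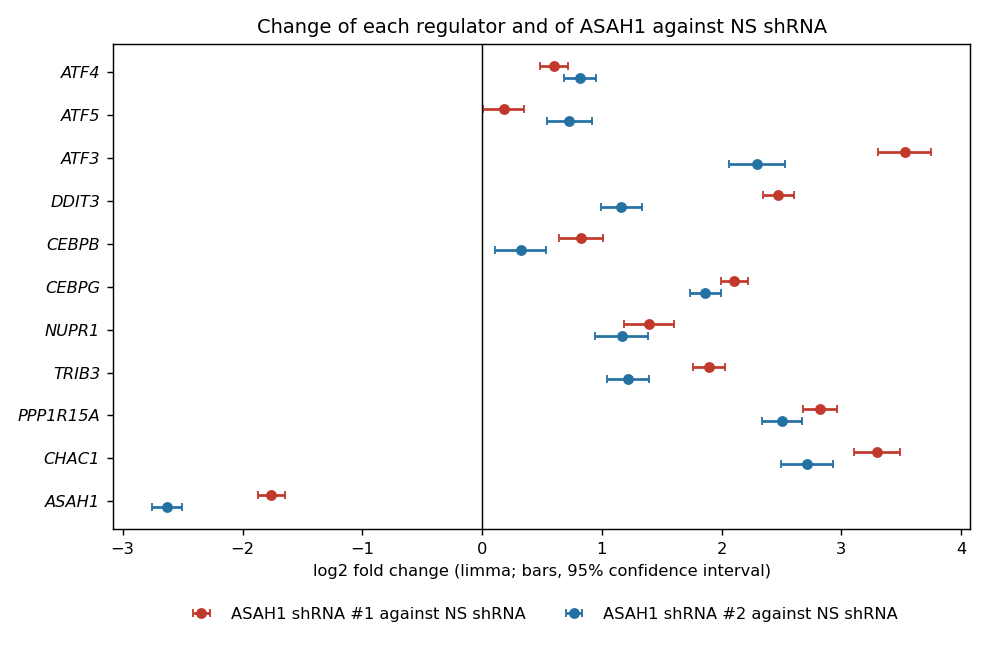
Log2 fold change of each regulator and of ASAH1 against NS shRNA. Points are limma estimates and bars their 95% confidence intervals, in red for ASAH1 shRNA #1 and in blue for shRNA #2. ATF3 at 3.53 and CHAC1 at 3.30 lie farthest to the right with shRNA #1, ATF5 with shRNA #1 lies next to 0 at 0.18, and ASAH1 lies to the left.

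The next comparison asked whether the hairpins differed from each other. It used the reads of all 9 libraries, put on a common scale as RPM after trimmed mean of M-values (TMM) scaling, and edgeR's quasi-likelihood test. Between the hairpins, 31.4% of 14381 genes tested were higher with shRNA #2 than with shRNA #1 and 32.5% were lower. Of the 10 regulators, 2 were higher with shRNA #2, 7 were lower and NUPR1 was not called. The median log2 ratio of the 10 regulators was -0.42, beside -0.0046 over all genes tested. ASAH1 was also lower with shRNA #2, as were these 7 regulators, while ATF4 and ATF5 were higher. Whether the differences came from ASAH1 knockdown, the hairpin or the culture was not tested.

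DDIT3 and ATF3 showed the widest gap between the hairpins. DDIT3 was at 75.1, 73.4 and 78.5 RPM with shRNA #1, at 28.4, 30.7 and 32.5 with shRNA #2 and at 13.9, 13.8 and 13.0 with NS shRNA. ATF3 was at 80.9, 83.5 and 81.2 RPM with shRNA #1, at 33.2, 36.3 and 34.9 with shRNA #2 and at 8.18, 6.08 and 7.05 with NS shRNA. The 3 groups were separate for both genes, with shRNA #2 between NS shRNA and shRNA #1. DDIT3 was 2.5-fold higher with shRNA #1 than with shRNA #2 (log2 ratio of shRNA #2 to shRNA #1 -1.32, standard error 0.06, adjusted p = 1.55e-08 from edgeR). ATF3 was 2.37-fold higher with shRNA #1 (log2 ratio -1.25, standard error 0.08, adjusted p = 1.32e-07 from edgeR).

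TRIB3 and CHAC1 followed the same order at smaller ratios. TRIB3 was at 142 to 160 RPM with shRNA #1 and 83.2 to 102 with shRNA #2, a 1.61-fold difference (log2 ratio -0.68, adjusted p = 1.15e-05 from edgeR). CHAC1 was at 41.7 to 43.8 RPM with shRNA #1 and 26.4 to 29.5 with shRNA #2, a 1.51-fold difference (log2 ratio -0.60, adjusted p = 1.41e-05 from edgeR). The feedback gene PPP1R15A was at 1039.9 to 1224 RPM with shRNA #1 and 807 to 995 with shRNA #2, a 1.25-fold difference (log2 ratio -0.32, adjusted p = 0.00307 from edgeR). No shRNA #2 library reached the lowest shRNA #1 library for these 3 genes.

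The C/EBP genes were also lower with shRNA #2. CEBPB was at 238 to 285 RPM with shRNA #1 and 155 to 197 with shRNA #2 (log2 ratio -0.51, adjusted p = 0.000906 from edgeR). CEBPG was at 188 to 197 RPM with shRNA #1 and 160 to 166 with shRNA #2 (log2 ratio -0.25, adjusted p = 0.000663 from edgeR). NUPR1 was at 56.3 to 67.5 RPM with shRNA #1 and 46.4 to 58.1 with shRNA #2, so the groups overlapped. Its log2 ratio was -0.24 with a 95% confidence interval from -0.46 to -0.019, and the adjusted p of 0.0548 from edgeR missed the threshold. It passed without any of 3 libraries (NS shRNA replicate 3, shRNA #1 replicate 1 or shRNA #2 replicate 3), at adjusted p = 0.0341, 0.0449 and 0.0159.

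ATF4 and ATF5 had the opposite order. ATF4 was at 215 to 236 RPM with shRNA #1 and 245 to 276 with shRNA #2, a 1.15-fold difference (log2 ratio 0.20, standard error 0.06, adjusted p = 0.00956 from edgeR). The call for ATF4 was lost under upper quartile normalisation (log2 ratio 0.12, adjusted p = 0.0825 from edgeR). ATF5 was at 33.1 to 33.3 RPM with shRNA #1 and 45.1 to 50.7 with shRNA #2, a 1.45-fold difference (log2 ratio 0.54, standard error 0.08, adjusted p = 7.84e-05 from edgeR). In neither gene did a shRNA #1 library reach the lowest shRNA #2 library.

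**Figure D3:**
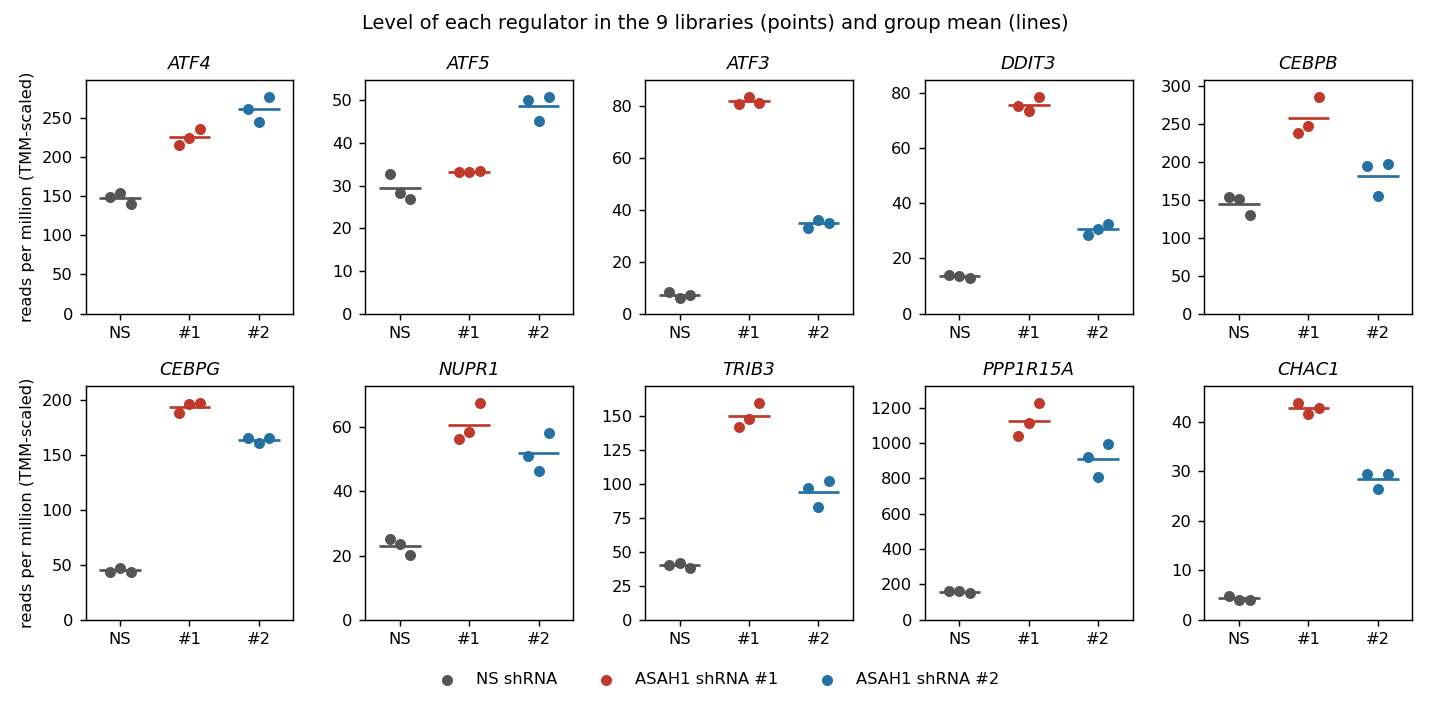
Level of each regulator in the 9 libraries. Points are libraries and lines group means, in RPM after TMM scaling, on an axis that starts at 0 and differs between panels. In 7 panels the shRNA #1 libraries lie above the shRNA #2 libraries without overlap, in the ATF4 and ATF5 panels they lie below, and in the NUPR1 panel they overlap.

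Levels were also set side by side between the regulators, as RPM per kilobase of the gene's canonical GENCODE transcript. With NS shRNA, ATF4 was highest at 104 ± 4.93 (SD, n = 3), followed by CEBPB at 78.7 ± 7.05 and PPP1R15A at 67.6 ± 3.19. TRIB3 at 17.1, DDIT3 at 15.0, ATF5 at 14.6 and CEBPG at 12.0 came next, and NUPR1 at 4.36, ATF3 at 3.66 and CHAC1 at 2.84 were lowest. DDIT3 and ATF5 had overlapping libraries, as had NUPR1 with ATF3 and ATF3 with CHAC1, and the other neighbours in this order were apart. NUPR1 is divided by a transcript of 5291 bases, far longer than its other annotated transcripts, so its level per kilobase depends on that choice.

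PPP1R15A was at the top of the order with both hairpins. It stood at 479 ± 39.5 (SD, n = 3) RPM per kilobase with shRNA #1 and 386 ± 40.3 with shRNA #2, above ATF4 at 158 ± 7.35 and 184 ± 11.02. With shRNA #1 the order went on with CEBPB at 140, DDIT3 at 83.8, TRIB3 at 63.7, CEBPG at 51.9, ATF3 at 42.2, CHAC1 at 28.2, ATF5 at 16.5 and NUPR1 at 11.5. ATF4 and CEBPB were the only neighbours in it whose libraries overlapped. With shRNA #2 CEBPB at 98.9 came next, then CEBPG at 43.9, TRIB3 at 39.98, DDIT3 at 33.8, ATF5 at 24.2, CHAC1 at 18.7, ATF3 at 17.9 and NUPR1 at 9.81. CEBPG and TRIB3 had overlapping libraries there, as had TRIB3 with DDIT3 and CHAC1 with ATF3. By group mean DDIT3 thus stood in place 5 with NS shRNA, 4 with shRNA #1 and 6 with shRNA #2. Its libraries overlapped those of ATF5 with NS shRNA and those of TRIB3 with shRNA #2, so places 5 and 6 are not settled.

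The pattern over the 9 libraries was described by the Pearson r of log2(RPM + 1), over the 11631 genes that averaged 100 reads or more. The 9 libraries form 3 groups and are not 9 independent conditions, so no p is given. Among the genes most like ATF4 outside the 10 regulators were DKC1 (r = 0.997) and MRTO4 (r = 0.997), which encode proteins of ribosome production. The genes most like DDIT3 were the cytokine gene IL24 (r = 0.998), the ribosome production gene RRP12 (r = 0.996) and RPL22L1 (r = 0.996), a paralogue of a ribosomal protein gene. Among the regulators, DDIT3 was most like ATF3 (r = 0.977) and TRIB3 (r = 0.974), less like ATF4 (r = 0.679) and least like ATF5 (r = 0.198).

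The genes around the 10 regulators were counted in 6 lists, each read against the shares of all genes given above. All 6 lists were chosen with earlier results of these data known, so their counts are a description. The first held 9 genes of the eIF2alpha kinases and their phosphatase partners. With shRNA #1, 3 were higher and 3 lower (median log2 fold change -0.0044). With shRNA #2, 3 were higher and 2 lower (median 0.13). PPP1R15B, the relative of PPP1R15A that serves eIF2alpha dephosphorylation without stress, was higher with both hairpins. Its log2 fold changes were 0.94 and 1.20 with shRNA #1 and shRNA #2 (adjusted p = 1.29e-06 and 2.31e-07 from limma). EIF2AK1, the heme-regulated kinase, was lower at -0.68 and -0.55 (adjusted p = 7.34e-06 and 3.94e-05 from limma). EIF2S1, which encodes eIF2alpha itself, was higher by 0.12 and 0.25, and PPP1CA, a catalytic subunit of protein phosphatase 1, was lower at -0.31 and -0.31.

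Of 18 ATF4 target genes for amino acid enzymes and transporters, 17 had enough reads. With shRNA #1, 16 were higher and 0 lower (median log2 fold change 1.23). With shRNA #2, 14 were higher and 2 lower (median 1.29). CTH, which makes cysteine, rose by log2 fold changes of 2.75 and 3.05 with shRNA #1 and shRNA #2 (adjusted p = 1.66e-09 and 4.30e-10 from limma). ASNS, asparagine synthetase, rose by 2.42 and 2.52 (adjusted p = 1.66e-09 and 5.03e-10 from limma), and PSAT1 of serine synthesis rose by 1.69 and 2.46. The 2 genes lower with shRNA #2 were PHGDH of serine synthesis and ALDH18A1 of proline synthesis, named after their values were seen. PHGDH was higher with shRNA #1, at a log2 fold change of 1.58, and lower with shRNA #2, at -1.20 (adjusted p = 1.25e-05 and 0.0012 from limma), and its log2 ratio between the hairpins was -2.78 (edgeR, adjusted p = 3.16e-07). PHGDH had few reads, a mean of 116 per library beside 6370 for ASNS. ALDH18A1 had 0.03 with shRNA #1, where it was not called, and -0.15 with shRNA #2.

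The next list held 12 ATF4 target genes for tRNA synthetases, enzymes that load amino acids onto tRNAs. It was chosen with earlier results of these data known and leaves out other tRNA synthetase genes. All 12 were higher with both hairpins, with medians of 0.92 and 0.98. Their log2 fold changes ran from 0.58 to 1.75 with shRNA #1 and from 0.63 to 1.55 with shRNA #2. YARS1 rose by 1.75 and 1.55 (adjusted p = 6.85e-09 and 7.42e-09 from limma), AARS1 by 1.68 and 1.15, and WARS1 by 1.26 and 1.04. They load tyrosine, alanine and tryptophan.

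Of 17 other ATF4 or CHOP stress output genes, 16 had enough reads. With shRNA #1, 12 were higher and 4 lower (median 0.67), and with shRNA #2, 9 were higher and 4 lower (median 0.70). GADD45A, a growth arrest gene, rose by log2 fold changes of 3.08 and 2.87 with shRNA #1 and shRNA #2 (adjusted p = 2.01e-08 and 8.59e-09 from limma). SESN2, which restrains mTORC1, rose by 2.76 and 1.46, and CDKN1A, which encodes the cell cycle inhibitor p21, by 2.03 and 1.85. ERO1A, an oxidase of the endoplasmic reticulum, was lower at -0.65 and -0.30, and KLHL24, an adaptor of a ubiquitin ligase, at -0.17 and -0.99.

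The other branches of the unfolded protein response, through ATF6 and IRE1, were represented by 16 genes. These include ATF6 and ERN1, the genes of the sensors themselves. With shRNA #1, 7 were higher and 7 lower (median log2 fold change -0.15), whereas with shRNA #2, 10 were higher and 3 lower (median 0.72). Between the hairpins, 11 of the 16 were higher with shRNA #2 and 2 were lower (median log2 ratio 0.50). This is the opposite of the 10 regulators, of which 2 were higher and 7 lower with shRNA #2. HSPA5, which encodes the chaperone BiP, rose by 0.47 with shRNA #1 and 1.18 with shRNA #2 (log2 ratio between the hairpins 0.69, edgeR adjusted p = 1.18e-06). XBP1, the factor spliced by IRE1, rose by 0.94 and 1.61 (log2 ratio 0.66, adjusted p = 2.77e-05 from edgeR). ERN1, which encodes IRE1 itself, had the reverse order at 2.19 and 1.22 (log2 ratio -0.995, adjusted p = 0.000145 from edgeR). ATF6, named after its values were seen, was the other of the 2 genes lower with shRNA #2 than with shRNA #1. It had 0.33 and -0.22 (log2 ratio -0.56, adjusted p = 0.000242 from edgeR). EDEM1, of endoplasmic reticulum degradation, was lower at -0.44 and -0.50, and the chaperone gene CALR at -0.38 and -0.45.

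The last list held 20 other C/EBP, ATF/CREB and related genes, of which 17 had enough reads. With shRNA #1, 8 were higher and 3 lower (median 0.19), and with shRNA #2, 8 were higher and 6 lower (median 0.17). CREB5, an ATF/CREB factor, rose by log2 fold changes of 1.79 and 1.02 (adjusted p = 4.97e-06 and 0.00031 from limma), and CREM, of the same family, by 0.41 and 0.74. CHAC2, the relative of CHAC1, rose by 1.01 and 1.03. TRIB2, the relative of TRIB3, was lower at -1.40 and -0.17 (adjusted p = 2.96e-08 and 0.0149 from limma). CEBPD was the other gene on the list named as lower with both hairpins.

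**Figure D4:**
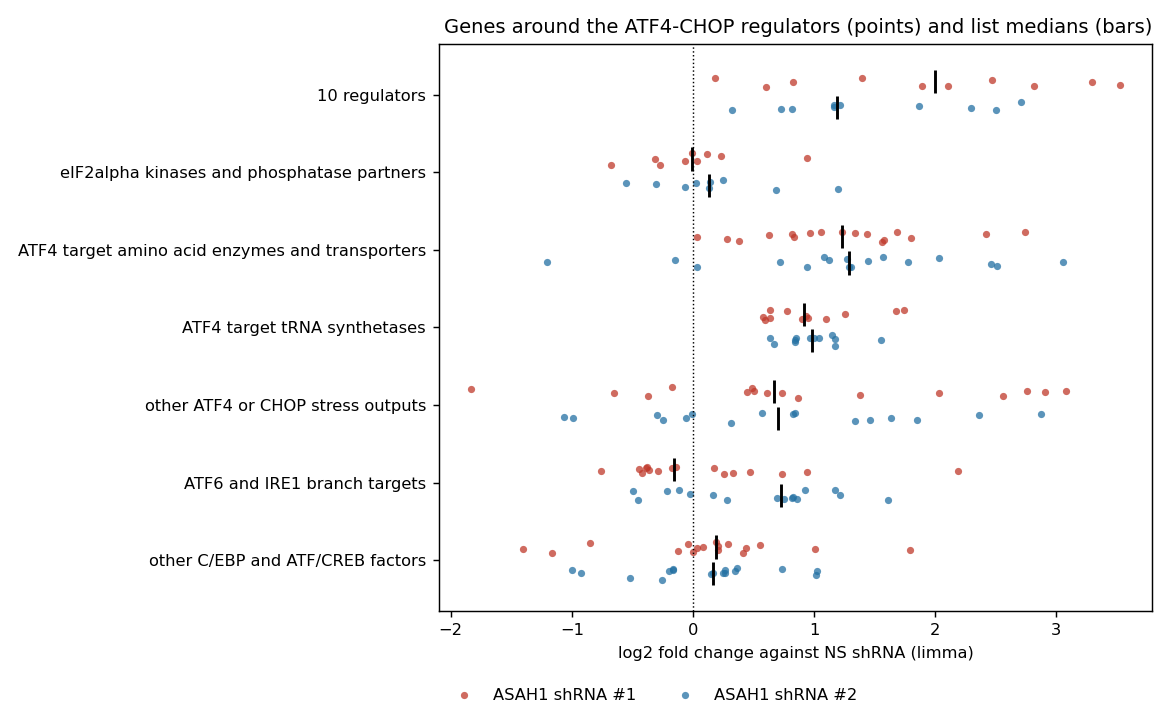
Log2 fold changes against NS shRNA (limma) of the 10 regulators and of 6 lists of surrounding genes. Points are genes, red for ASAH1 shRNA #1 and blue for shRNA #2, with vertical jitter only for legibility, and black bars are medians. The listed ATF4 target tRNA synthetase genes all lie above 0 with both hairpins. The median of the list called ATF6 and IRE1 branch targets, which includes ATF6 and ERN1 themselves, is -0.15 with shRNA #1 and 0.72 with shRNA #2.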

How the data were processed

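Reads were trimmed by the authors with Trimmomatic 0.36 and aligned to hg38 with STAR 2.7.1a. Counts on UCSC genes came from htseq-count with strand, and DESeq2 1.28 was run for each hairpin with NS shRNA. Another paragraph of their methods names RSEM and TMM instead. They deposited, for each library, a normalised signal (reads over a size factor). They also deposited log2 fold changes with their standard errors, a Wald statistic (a score) and p-values, none of which were used here. For library preparation, the labels name oligo-dT beads and the design text ribosomal RNA depletion.

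Each hairpin was compared with NS shRNA by limma 3.58.1 with an intensity trend on log2(value + 1), over genes that averaged 10 or more, with Benjamini-Hochberg adjustment over all genes. Whole reads were recovered from the deposited signal, and 100% of the values checked lay within 0.02 of a whole read. The largest values were left out of that check. The hairpins were compared on the recovered reads with edgeR 4.0.16 (quasi-likelihood, TMM). In R 4.3.3, fits were tested on simulated data. The 28 symbols that a spreadsheet program had turned into dates were taken from the other comparison's list, which has the same order. No library was a copy of another. The range and median of the depth in each group are given in the report.

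Replicate numbers did not pair the libraries: deviations of same-numbered libraries correlated at -0.59 to 0.47 and those of other libraries at -0.40 to 0.52. Alternatives were other pseudocounts (0.1 and 5) and filters, limma without the trend, upper quartile scaling, edgeR and DESeq2 1.42.0 on the reads, 1 fit of all 9 libraries, a replicate block and each library left out. The regulators and the 6 lists were chosen with earlier results of these data known. Named list genes are at most the 3 highest and 2 lowest by mean log2 fold change among those with a mean of at least 100 that passed in the same direction in both comparisons. Exceptions are said to be named after their values were seen. The like genes are the 3 with the largest r, and an item that this rule also covers is not reported here. Positions and transcripts come from GENCODE v44 and upstream sequences from RefSeq starts on hg38.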

Additional observations from a re-analysis of the deposited data

Results flagged for a closer look

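The mRNA level differed between the shRNA #2 and shRNA #1 libraries for 9 of the 10 regulators, by edgeR's test. Each hairpin had its own cells, and whether the difference came from ASAH1 knockdown, the hairpin or the culture was not tested. The log2 ratios were -1.32 for DDIT3, -1.25 for ATF3, -0.68 for TRIB3, -0.60 for CHAC1, -0.51 for CEBPB, -0.32 for PPP1R15A and -0.25 for CEBPG, all lower with shRNA #2. They were 0.20 for ATF4 and 0.54 for ATF5, both higher with shRNA #2. A difference between the hairpins was called for 31.4% of all genes tested in the higher and 32.5% in the lower direction.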

How the results depend on the processing

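The number of regulators called stayed at 9 or 10 in each comparison under all alternatives. Over 30 results for single regulators and 460 values under the alternatives, 448 kept their direction and their side of the threshold, 4 lost and 8 gained a call, and 0 changed direction. CEBPB with shRNA #2 lost its call without the trend (adjusted p = 0.0568) and with upper quartile scaling (log2 fold change 0.23, adjusted p = 0.0576). ATF5 with shRNA #1 gained a call in 1 fit of all 9 libraries (0.19, adjusted p = 0.0476). NUPR1 between the hairpins gained a call with DESeq2 (-0.23, adjusted p = 0.0458), upper quartile scaling (-0.31, adjusted p = 0.0181) and no filter (-0.23, adjusted p = 0.0386). With a library left out, the log2 fold change of ATF5 with shRNA #1 ran from 0.12 to 0.26 and that of CEBPB with shRNA #2 from 0.25 to 0.43. The replicate block, tried although the numbers did not pair the libraries, left 9, 10 and 9 regulators called, with ATF5 at adjusted p = 0.112 with shRNA #1. With shRNA #2 it left 1 gene lower among the amino acid genes, as did leaving out NS shRNA replicate 2, NS shRNA replicate 3 or shRNA #2 replicate 3. Among the eIF2alpha genes lower with shRNA #2, 1 was left without the trend, without NS shRNA replicate 1 or without NS shRNA replicate 2. Upper quartile scaling moved the median over all genes with shRNA #2 from 0.013 to -0.076.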

Other observations

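Some genes on the list of other ATF4 or CHOP stress outputs differed widely between the hairpins, and they are named here after their values were seen. GDF15, which encodes a stress cytokine, had a log2 fold change of 2.91 with shRNA #1 and -0.06 with shRNA #2, a log2 ratio of -2.98 between the hairpins (adjusted p = 4.49e-10 from edgeR). STC2, a secreted glycoprotein gene induced by stress, had 2.56 with shRNA #1 and 0.32 with shRNA #2, where it was not called (log2 ratio -2.27, adjusted p = 2.75e-07 from edgeR). BBC3, which encodes the cell death protein PUMA, rose by 0.49 with shRNA #1 and fell by 1.06 on the log2 scale with shRNA #2. NDRG1, a gene linked to differentiation and stress, fell by 1.83 on the log2 scale with shRNA #1 and had -0.0073 with shRNA #2, where it was not called (log2 ratio 1.81, adjusted p = 2.92e-11 from edgeR). VLDLR, a lipoprotein receptor gene, was also higher with shRNA #2 than with shRNA #1, at 0.45 and 1.64, and VEGFA, an angiogenic growth factor gene, had 1.38 and 2.37. Of the 16 genes of this list that were tested, 6 were higher and 6 lower with shRNA #2 than with shRNA #1. These counts are near the shares over all genes tested, 31.4% higher and 32.5% lower.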
